A study of Mus musculus with 8 samples.

Results

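Club cells are secretory cells of the bronchiolar epithelium and carry much of the lung's capacity to oxidise, hydrolyse and reduce inhaled foreign compounds. Besides cytochrome P450 enzymes they hold aldehyde dehydrogenases, which turn reactive aldehydes into acids, flavin-containing monooxygenases, which add oxygen to nitrogen and sulphur atoms with NADPH, microsomal epoxide hydrolase, which opens epoxides with water, carbonyl reductases, which reduce ketones and aldehydes, and aldehyde oxidases, which need a molybdenum cofactor. The 9 genes described here, Aldh1a1, Aldh1a7, Aldh3a1, Fmo1, Fmo2, Ephx1, Cbr2, Aox3 and Por, cover these steps outside the P450 family, together with the reductase that feeds electrons to it. Each was taken as the probe set annotated with that gene symbol alone. Of the 9 genes, 8 had such a probe set, 1 each, among the 22180 genes of the array, and Por, the NADPH-cytochrome P450 reductase, is only named, since no probe set carried its symbol.

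Transcripts were measured on arrays in club cells isolated from lungs of Atgl KO/cTg mice and of wt/cTg mice. By their label the former are knocked out for adipose triglyceride lipase (the product of Pnpla2, formerly Atgl), and the latter are wild type. Both genotypes carry cTg, which the labels do not expand, and the sources used here do not give what drives it or in which cells. Mice were 38 to 48 weeks old, untreated and on standard chow. Each array holds cells pooled from 3 or 4 mice, and each genotype has 4 arrays, in all 16 Atgl KO/cTg mice and 14 wt/cTg mice, so the spread given is a spread between pools and precision is limited by how few arrays there are. The comparison asks whether club cells of the knockout hold other levels of these transcripts.

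Pnpla2 averaged 6.98 ± 0.20 in Atgl KO/cTg pools, against 8.70 ± 0.11 in wt/cTg pools (log2 signal, SD, n = 4 each), and the limma adjusted p of its difference was 0.000116. The Atgl KO/cTg pools, at 6.70 to 7.16, still lay above the median of all probe sets, 5.18, and the source of this signal was not tested. The club cell markers Scgb1a1 (12.92 ± 0.10 in Atgl KO/cTg, 12.99 ± 0.08 in wt/cTg) and Cyp2f2 (12.63 ± 0.06 in Atgl KO/cTg, 12.57 ± 0.04 in wt/cTg) were bright in both genotypes, close to the top of the arrays (13.38 to 13.54), and markers of other cell types were present too, so the transcripts described here cannot be assigned to club cells alone. One pool stood furthest apart in sex-linked transcripts. For Xist, the RNA that coats the inactive X, wt/cTg replicate 4 gave 3.75, where the 7 remaining pools gave 9.34 to 10.67. A score was formed for each pool as the log2 signal of Xist minus the mean of Uty, Kdm5d and Eif2s3y. It was 3.15, 4.01, 4.81 and 3.90 in the Atgl KO/cTg pools, against 5.14, 5.11, 5.23 and -3.24 in the wt/cTg pools. All Atgl KO/cTg pools thus scored below wt/cTg replicates 1, 2 and 3 and above wt/cTg replicate 4. Replicate 4 of wt/cTg and replicate 2 of Atgl KO/cTg also lay at opposite ends of the first principal component.

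None of the 8 enzymes differed between genotypes past the threshold, an adjusted p of 0.05 in limma with Benjamini-Hochberg adjustment over all 13112 genes tested. Over all genes 0.0991% passed, 13 in number. All 8 lay above the level filter that decided which genes were tested, at the mean of both genotypes together. In 7 of the 8 the Atgl KO/cTg mean was the higher one, whereas 47.8% of all genes tested lay above 0, but most of these differences were small. They ran from 0.026 to 0.22 on the log2 scale, and Fmo1 alone lay below 0, at -0.36. The median of the 8 was 0.079, against -0.0073 over all genes tested. For all 8 enzymes the pools of the 2 genotypes overlapped, while 4.35% of all genes had groups that did not overlap (1.74% higher and 2.62% lower). At an unadjusted p under 0.05 there were 2 of the 8, Aldh1a7 (higher in Atgl KO/cTg) and Fmo1 (lower), and 7.95% of all genes reached that level, 3.39% higher and 4.56% lower.

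Club cell markers lay mostly on the same side as these enzymes. Their list was chosen with earlier results of these data known, so this is a description. Of 12 listed, 11 were tested, 7 above 0 and 4 below, with a median of 0.16. Limma called 0 of them, while 5 were higher at an unadjusted p under 0.05 and 0 lower. Over all genes tested these shares were 3.39% and 4.56%. The 5 higher ones, named after their values were seen, were Cckar (0.41), Retnla (0.36), Gabrp (0.34), Hp (0.18) and Scgb3a1 (0.16). The pools of Retnla, Hp and Scgb3a1 did not overlap, as for 1.74% of all genes in that direction. The 4 below 0 were Sult1d1 (-0.18), Bpifa1 (-0.11), Scgb3a2 (-0.085) and Scgb1a1 (-0.069). Cyp2a5, below the level filter and so not tested, was at -0.54, and its pools did not overlap. The summed linear signal of the list ran from 40030 to 43055 in Atgl KO/cTg and from 36803 to 40594 in wt/cTg. The part of these markers' shift in the enzymes' differences was not tested.

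**Figure D1:**
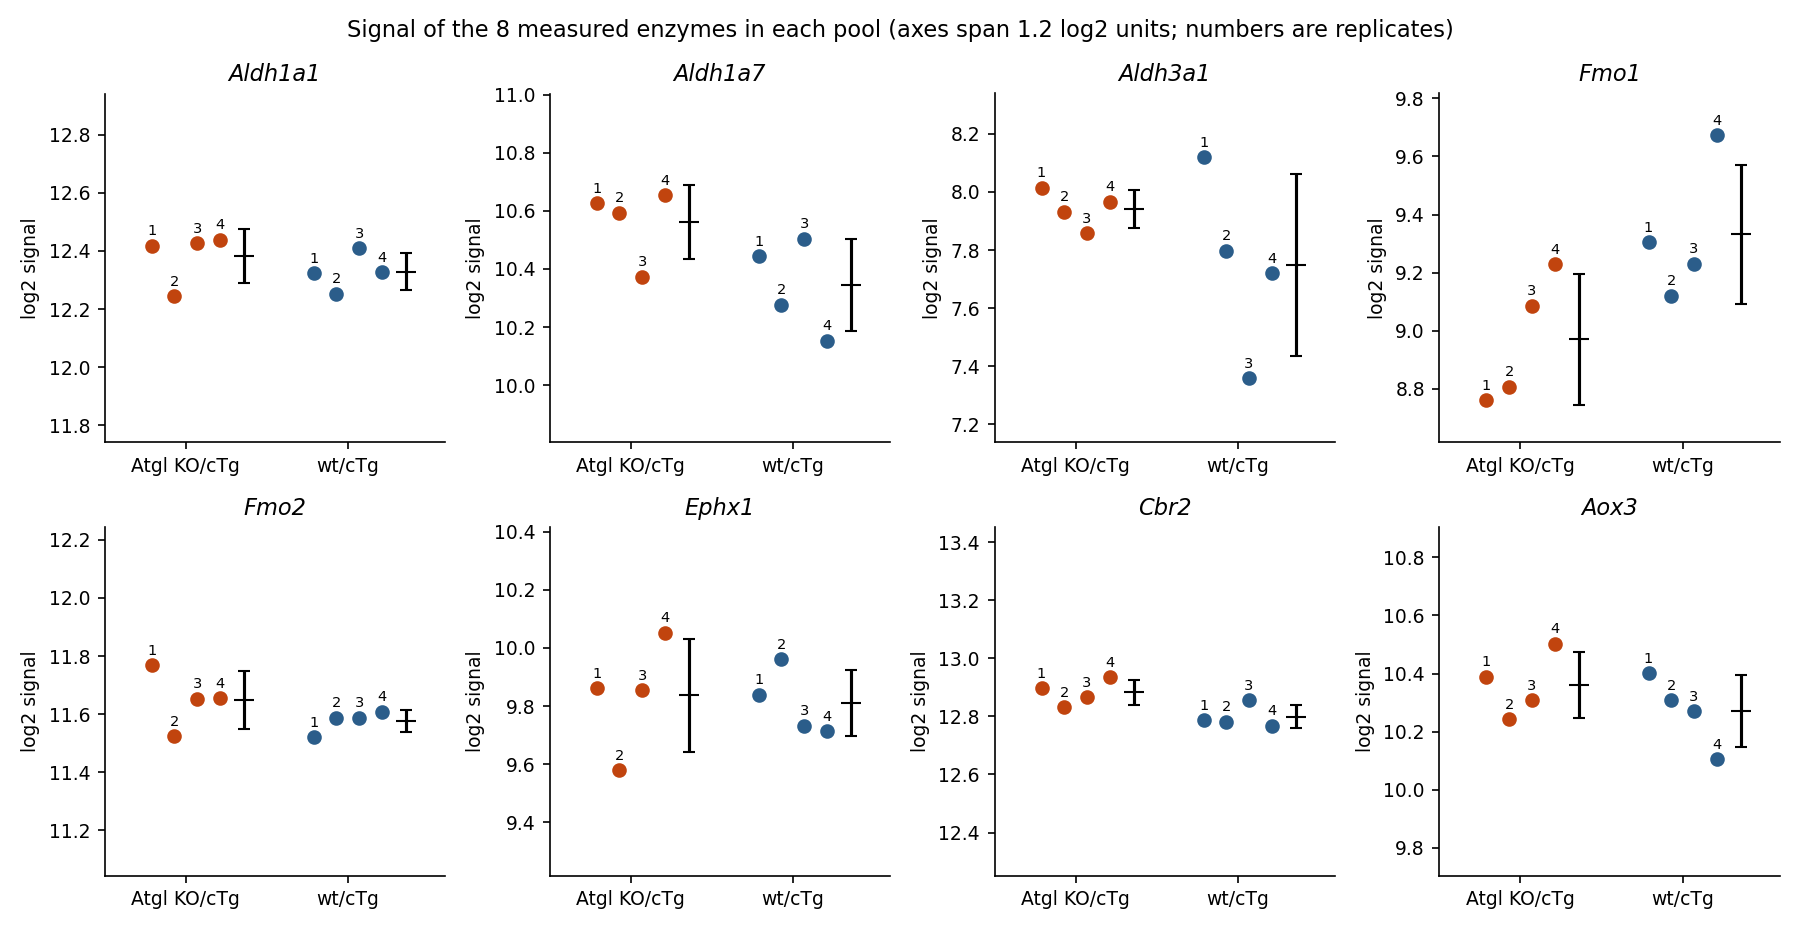
Log2 signal of the 8 measured enzymes in each pool. Each point is an array, numbered by replicate within its genotype, with Atgl KO/cTg left of wt/cTg. Bars give the mean and SD of 4 pools, and every axis spans the same range. The groups overlap in all 8 panels, and the largest shift is that of Fmo1, with means of 8.97 in Atgl KO/cTg pools, against 9.33 in wt/cTg pools.

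The 2 cytosolic aldehyde dehydrogenases Aldh1a1 and Aldh1a7 are neighbours on chromosome 19 with no other protein-coding gene between them. ALDH1A1 oxidises retinal to retinoic acid and clears aldehydes from lipid peroxidation, and Aldh1a7 is its close rodent relative. Their upstream sequences are shown because the 2 genes, whose array values are compared with each other, share a nearly identical stretch there. In RefSeq's GRCm38.p6, the 110 bases before the annotated start at chr19:20601858-20601967 (plus strand, Aldh1a1, the downstream one of its 2 windows) and at chr19:20727557-20727666 (minus strand, Aldh1a7) line up without a gap and share 104 bases (94.5%). The stretch is the longest before the start that kept a preset high share of identical bases, compared without gaps. It comes from the Aldh1a1 window more like that of Aldh1a7, so the high share follows from how it was picked. The capitals mark the 6 differing positions.
Aldh1a1: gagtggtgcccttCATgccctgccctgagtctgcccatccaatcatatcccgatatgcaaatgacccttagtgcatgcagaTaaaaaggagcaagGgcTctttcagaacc
Aldh1a7: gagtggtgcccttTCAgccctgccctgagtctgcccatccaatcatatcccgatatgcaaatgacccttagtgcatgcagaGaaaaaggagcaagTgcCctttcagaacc
Both stretches hold the letters CCAAT and the octamer ATGCAAAT, searched on both strands and not overlapping each other. Among 32851 promoter windows of RefSeq genes, 37.4% hold CCAAT and 1.74% hold ATGCAAAT. Those windows run from 250 bases before to 50 after the start and are longer than the 110 bases searched here. The 2 stretches are near copies, so their matches are not separate occurrences.

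Aldh1a1 (probe set 17358103) read 12.42, 12.25, 12.43 and 12.44 in the Atgl KO/cTg pools, against 12.32, 12.25, 12.41 and 12.33 in the wt/cTg pools. In Atgl KO/cTg 3 pools lay just above every wt/cTg pool and replicate 2 lay below them all. On the log2 scale the difference was 0.054 with SE 0.060 (adjusted p = 0.869 in limma and p = 0.314 in the exact permutation test), a ratio of 1.04 with a 95% interval of 0.948 to 1.14. The difference ran from 0.029 (without wt/cTg replicate 2) to 0.10 (without Atgl KO/cTg replicate 2) when a pool was left out, and between pools of mice with neighbouring numbers in the titles, which the labels do not call a batch, it was 0.0075, 0.17 and 0.11.

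Aldh1a7 (probe set 17363429) read 10.63, 10.59, 10.37 and 10.65 in the Atgl KO/cTg pools, against 10.44, 10.28, 10.50 and 10.15 in the wt/cTg pools. Again 3 Atgl KO/cTg pools lay above every wt/cTg pool, and replicate 3 lay inside the wt/cTg range. Between genotypes the log2 difference was 0.22 (SE 0.092), with a limma p of 0.0372 before and 0.596 after adjustment and an exact permutation p of 0.0857. The ratio was 1.16, with an interval of 1.01 to 1.34. The lowest value of all 8 pools was that of wt/cTg replicate 4. Without it the difference was 0.15 (limma unadjusted p = 0.114, adjusted p = 0.854), and the unadjusted p also passed 0.05 upwards without Atgl KO/cTg replicate 1, 2 or 4 (0.0892, 0.0666 and 0.0961) or wt/cTg replicate 2 (0.0879). Without both end pools of the first principal component it was 0.14 (limma unadjusted p = 0.161). With a score of each pool's sex-linked transcripts as a covariate it was 0.19 (limma unadjusted p = 0.0501, adjusted p = 0.67). Between pools of mice with neighbouring numbers the differences were 0.17, 0.096 and 0.50 on the log2 scale.

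Whether the 2 paralogs moved apart was asked from the difference of their log2 signals within each array, a comparison chosen after their values were seen. Aldh1a7 minus Aldh1a1 averaged -1.82 ± 0.17 in Atgl KO/cTg pools, against -1.98 ± 0.13 in wt/cTg pools (SD, n = 4 each). This size mixes 2 probe sets and only its change between genotypes can be read. That change was 0.16 (exact permutation p = 0.171, 0.171 after adjustment over the 2 pairs compared in this way). Without Atgl KO/cTg replicate 3 it was 0.24 (exact permutation p = 0.0286, which is also the least that 3 against 4 pools allow), and without both end pools of the first principal component it was 0.045 (exact permutation p = 0.6). The sources used here do not say how far the probes of such close paralogs bind both transcripts.

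Aldh3a1 encodes an aldehyde dehydrogenase for aromatic and lipid-derived aldehydes and is a classical target of the aryl hydrocarbon receptor. Its probe set (17250567) read 8.01, 7.93, 7.86 and 7.97 in the Atgl KO/cTg pools, against 8.12, 7.80, 7.36 and 7.72 in the wt/cTg pools. The Atgl KO/cTg pools sat close together, inside the much wider wt/cTg range (SD 0.066 in Atgl KO/cTg pools, against 0.31 in wt/cTg pools). The log2 difference was 0.19 with SE 0.14 (adjusted p = 0.784 in limma and p = 0.314 in the exact permutation test), with an interval of -0.11 to 0.50. It was 0.32 without wt/cTg replicate 1, the highest pool (limma unadjusted p = 0.0229, adjusted p = 0.535), and 0.063 without wt/cTg replicate 3, the lowest. With the run of mouse numbers as a block it was 0.033, and within the 3 runs that hold both genotypes it was -0.15, 0.059 and 0.25.

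Other genes that the aryl hydrocarbon receptor induces gave no call. Of 7 listed, 6 were measured and 4 tested, 3 of them above 0. Nqo1, a quinone reductase, averaged 6.25 ± 0.15 in Atgl KO/cTg pools, against 5.67 ± 0.34 in wt/cTg pools, and its difference of 0.58 had a limma adjusted p of 0.399. Cyp1b1 was at 0.27 and Cyp1a1 at 0.17 (limma adjusted p = 0.77 and 0.806), both P450 enzymes and both with overlapping pools.

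**Figure D2:**
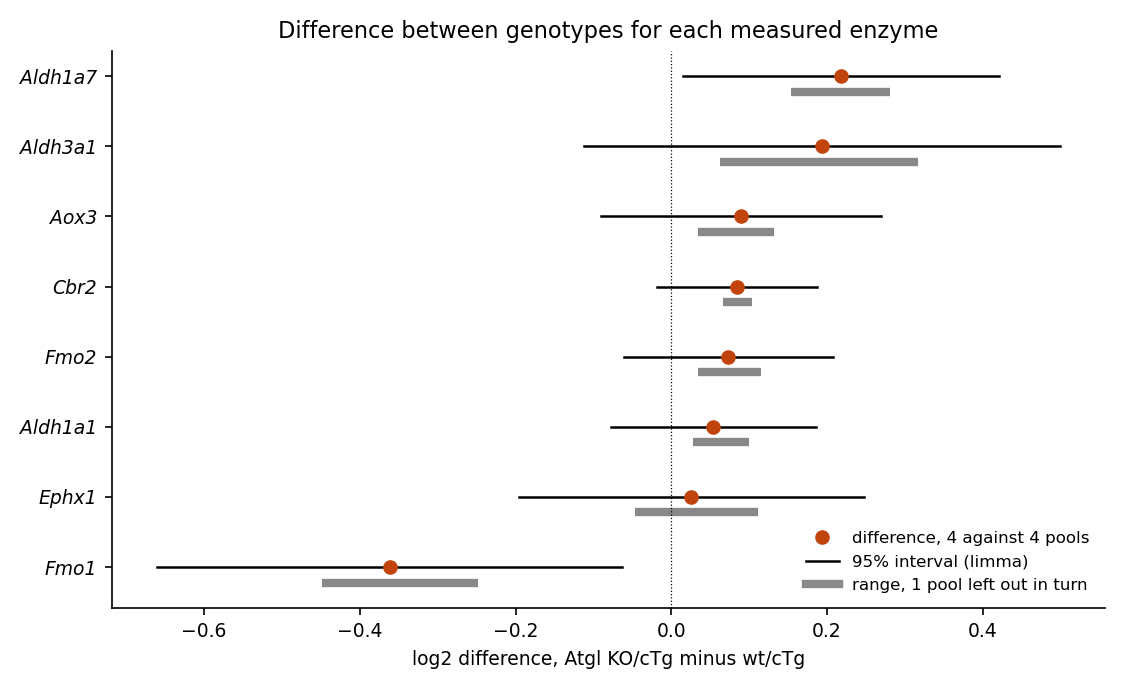
Log2 difference between Atgl KO/cTg and wt/cTg for each measured enzyme, with the 95% interval from limma (thin line) and the range when each of the 8 pools is left out in turn (grey bar). The interval of Fmo1 (-0.66 to -0.063) and that of Aldh1a7 (0.015 to 0.42) leave out 0 before adjustment for the 13112 genes, and the grey bar of Ephx1 (-0.046 to 0.11) crosses 0.

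Flavin-containing monooxygenases were represented by Fmo1 and Fmo2, neighbours on chromosome 1 with no protein-coding gene between them. Fmo1 (probe set 17229020) read 8.76, 8.81, 9.09 and 9.23 in the Atgl KO/cTg pools, against 9.31, 9.12, 9.23 and 9.67 in the wt/cTg pools. In Atgl KO/cTg 3 pools lay below every wt/cTg pool, and the highest, replicate 4, lay inside the wt/cTg range. On the log2 scale the difference was -0.36 (SE 0.14), with a limma p of 0.0219 before and 0.524 after adjustment and an exact permutation p of 0.0571. The ratio was 0.778, with an interval of 0.633 to 0.957.

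The size of the Fmo1 difference rested partly on the pools at the ends of the data. It was -0.25 without wt/cTg replicate 4 (limma unadjusted p = 0.0661), -0.29 without Atgl KO/cTg replicate 1 (0.07), -0.31 without Atgl KO/cTg replicate 2 (0.0603) and -0.19 without both end pools of the first principal component (0.145). Between pools of mice with neighbouring numbers it was -0.52, -0.035 and -0.44. With the sex-linked score of each pool as a covariate it was -0.32 (limma unadjusted p = 0.0231, adjusted p = 0.597).

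Fibroblast and smooth muscle markers had lower means in Atgl KO/cTg, as Fmo1 did. All 10 listed markers were tested and all 10 lay below 0, whereas 47.8% of all genes tested lay above 0. Limma called 0 of the 10. At an unadjusted p under 0.05 there were 4 lower, where the share over all genes was 4.56%. Groups did not overlap for 1, as for 2.62% of all genes in that direction. The brightest of them were Dcn, a matrix proteoglycan (-0.11), and Inmt, a methyltransferase of lung stroma (-0.63). The summed signal of the list on the linear scale ran from 6051 to 8824 in Atgl KO/cTg and from 8084 to 11213 in wt/cTg. Of the alveolar type 2 markers 11 of 11 lay below 0 and 5 were called lower, as were 0.0839% of all genes. They were Hc, Etv5, Lamp3, Sftpc and Slc34a2, and Sftpc and Slc34a2 passed narrowly (limma adjusted p = 0.0461 and 0.0477). Without the variance trend, and after quantile normalization, limma called 1 of all genes, so these calls cannot all hold there. The summed signal of the 11 markers ran from 20794 to 22753 in Atgl KO/cTg and from 25770 to 34351 in wt/cTg. Alveolar type 1 markers (7 of 8 below 0, median -0.29) and endothelial markers (6 of 8 below 0, median -0.37) had 0 calls. Their sums were lowest in Atgl KO/cTg replicates 1 and 2 (alveolar type 1 3283 and 3206, endothelial 4600 and 3534). Both sums were highest in wt/cTg replicate 4 (6329 and 7380). The part of any of these markers in the Fmo1 difference was not tested, and in pooled RNA fewer cells of a type and less RNA per cell cannot be told apart.

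The genes whose pattern over the 8 arrays was most like that of Fmo1 were Dpt, a matrix protein (Pearson r = 0.98, Spearman rho = 0.93), and Afap1l1, an actin-binding adaptor (r = 0.98, rho = 0.95). These are the 2 highest of 13111 genes compared, and all share the arrays and genotypes, so the values are a description. Dpt read 10.61, 10.67, 11.01 and 11.13 in the Atgl KO/cTg pools, against 11.23, 11.10, 11.03 and 11.52 in the wt/cTg pools. Its difference of -0.37 and that of Afap1l1 (-0.45, with groups that did not overlap) had the same limma adjusted p as Fmo1, 0.524.

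**Figure D3:**
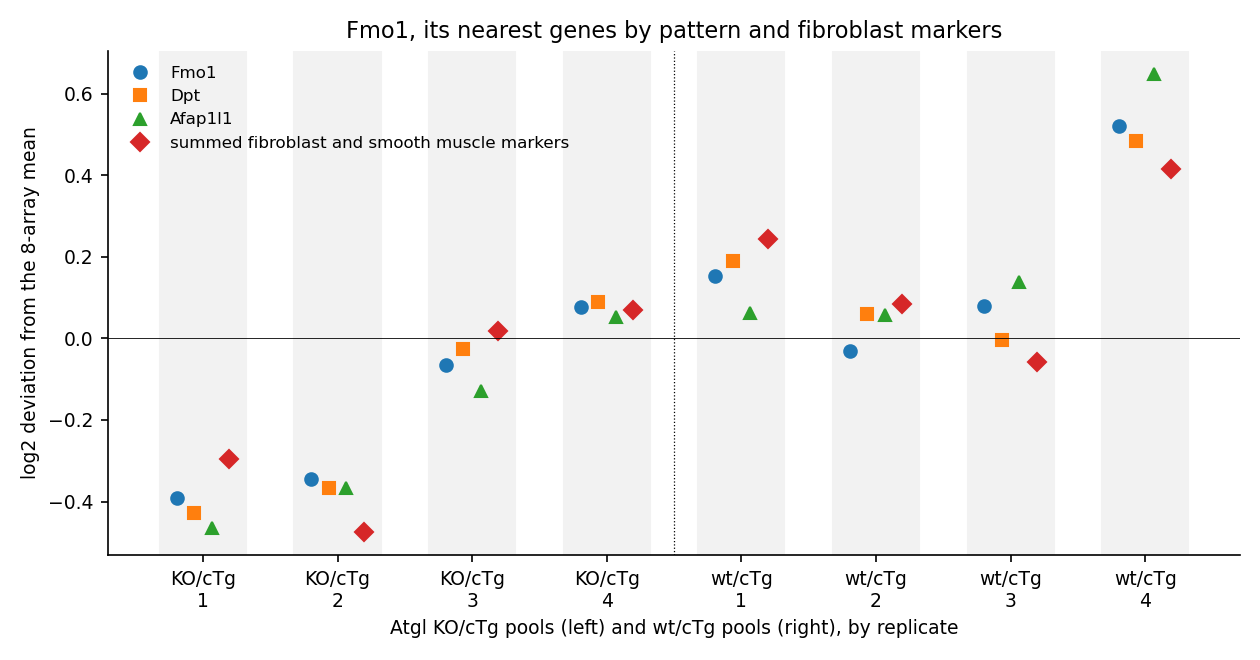
Log2 deviation from the mean of the 8 arrays for Fmo1, for the 2 genes with the most similar pattern (Dpt and Afap1l1) and for the summed signal of 10 fibroblast and smooth muscle markers, with Atgl KO/cTg pools on the left and wt/cTg pools on the right. All 4 series are low in Atgl KO/cTg replicates 1 and 2 and highest in wt/cTg replicate 4. The summed signals of alveolar type 1 and of endothelial markers, not drawn, are so too.

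Fmo2 is known as the main pulmonary member of the family in many mammals. Its probe set (17229036) read 11.77, 11.52, 11.65 and 11.66 in the Atgl KO/cTg pools, against 11.52, 11.59, 11.59 and 11.61 in the wt/cTg pools. The wt/cTg pools differed little from each other (SD 0.039), and 3 of the Atgl KO/cTg pools lay above them. Between genotypes the log2 difference was 0.073 with SE 0.061 (adjusted p = 0.813 in limma and p = 0.229 in the exact permutation test), with an interval of -0.061 to 0.21. It was 0.034 without Atgl KO/cTg replicate 1, the highest pool, 0.12 without Atgl KO/cTg replicate 2 (limma unadjusted p = 0.0522) and 0.13 without both end pools of the first principal component (0.0558). Within runs of mouse numbers it was 0.13, 0.065 and 0.046.

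The within-array difference Fmo2 minus Fmo1, also chosen after the values were seen, was 3.01, 2.72, 2.57 and 2.43 in the Atgl KO/cTg pools, against 2.22, 2.47, 2.36 and 1.94 in the wt/cTg pools. It was higher in 3 of 4 Atgl KO/cTg pools than in any wt/cTg pool. The change between genotypes was 0.44 (exact permutation p = 0.0571, 0.114 after adjustment over the 2 pairs). The smallest exact permutation p that this design allows, 0.0286, would not pass the threshold after this adjustment, with the other pair at 0.171. The test therefore could not decide whether these neighbours changed unequally. The change of Fmo2 minus Fmo1 between genotypes ran from 0.33 to 0.52 when each pool was left out.

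**Figure D4:**
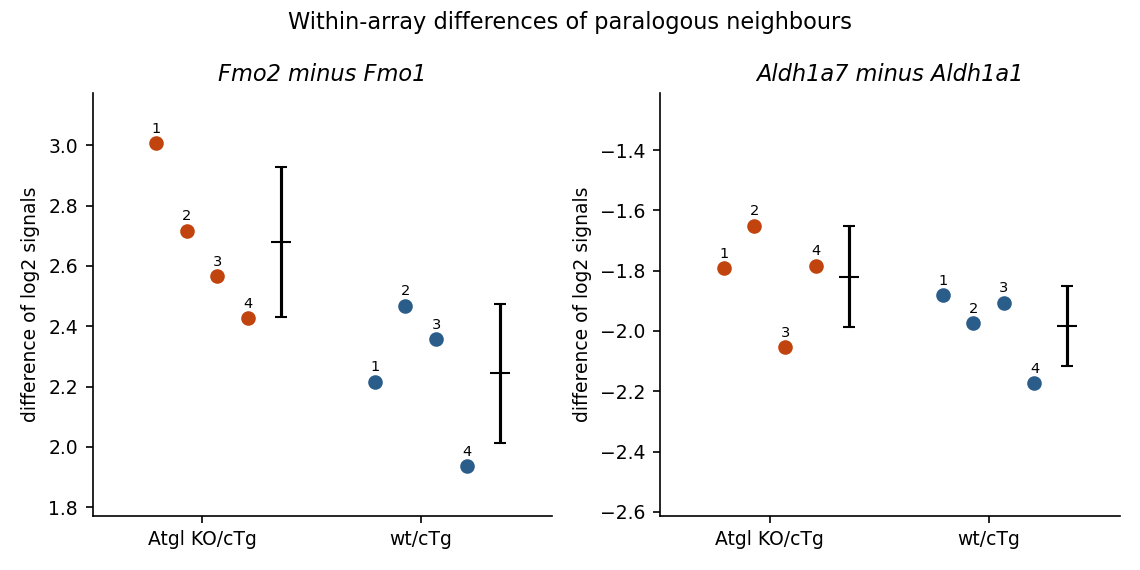
Difference of the log2 signals of neighbouring paralogs within each array, Fmo2 minus Fmo1 (left) and Aldh1a7 minus Aldh1a1 (right). Points are pools numbered by replicate, with Atgl KO/cTg left of wt/cTg, and bars give the mean and SD of 4 pools. In both panels 3 of 4 Atgl KO/cTg pools lie above every wt/cTg pool and the groups overlap.

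The other flavin monooxygenases tested lay below 0, without a call, and Fmo4 lay there only just (-0.024, limma adjusted p = 0.988). Of 5 listed, 4 were measured and 3 tested. Fmo5 averaged 7.25 ± 0.36 in Atgl KO/cTg pools, against 7.52 ± 0.10 in wt/cTg pools, and Fmo6, which follows Fmo2 on chromosome 1, averaged 5.48 ± 0.18 in Atgl KO/cTg pools, against 5.71 ± 0.29 in wt/cTg pools (SD, n = 4 each). Their limma adjusted p were 0.723 and 0.774. Fmo4 (5.35 in Atgl KO/cTg, 5.38 in wt/cTg) and Fmo6 lay close to the level filter of 5.18. Fmo9, below that filter and so not tested, was at 0.11. The median of the 3 tested genes was -0.22, and -0.093 without Atgl KO/cTg replicate 2, in which Fmo5 read 6.71. It was -0.11 without wt/cTg replicate 1 and -0.059 without both end pools of the first principal component.

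Ephx1, microsomal epoxide hydrolase, turns the epoxides that P450 enzymes make from aromatic hydrocarbons into diols. Its probe set (17230484) read 9.86, 9.58, 9.86 and 10.05 in the Atgl KO/cTg pools, against 9.84, 9.96, 9.73 and 9.71 in the wt/cTg pools. Both the lowest and the highest of all 8 pools were Atgl KO/cTg pools. The log2 difference was 0.026 with SE 0.10 (adjusted p = 0.978 in limma and p = 0.857 in the exact permutation test), with an interval of -0.20 to 0.25, and its sign turned in 4 of 20 alternative settings. Within runs of mouse numbers it was -0.12, -0.11 and 0.34. Of the other epoxide hydrolases listed, Ephx2, the soluble enzyme, was at -0.12 and Lta4h, which makes leukotriene B4, at -0.017, with limma adjusted p of 0.86 and 0.986.

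Cbr2 encodes the mitochondrial carbonyl reductase known from mouse lung. Its probe set (17273304) read 12.90, 12.83, 12.87 and 12.94 in the Atgl KO/cTg pools, against 12.79, 12.78, 12.86 and 12.77 in the wt/cTg pools. It had the smallest spread of the 8 enzymes (pooled SD 0.042 within genotypes), and 3 Atgl KO/cTg pools lay above every wt/cTg pool. On the log2 scale the difference was 0.084 (SE 0.047, limma p = 0.0988 before and 0.7 after adjustment, and 0.0571 in the exact permutation test), a ratio of 1.06 with an interval of 0.987 to 1.14. Within runs of mouse numbers it was 0.078, 0.084 and 0.17. These values lie near the top of the arrays.

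Dcxr, dicarbonyl and L-xylulose reductase, is the gene next to Cbr2 on chromosome 11 and a related short-chain reductase. Dcxr read 10.46, 10.44, 10.31 and 10.63 in the Atgl KO/cTg pools, against 10.21, 10.16, 10.15 and 10.14 in the wt/cTg pools. The groups did not overlap, and the log2 difference was 0.29 (SE 0.074, limma p = 0.00207 before and 0.329 after adjustment, and 0.0286 in the exact permutation test, the least this design allows). Akr7a5, an aldo-keto reductase that reduces aflatoxin dialdehyde, also had groups that did not overlap, at 6.76 ± 0.02 in Atgl KO/cTg pools, against 6.63 ± 0.07 in wt/cTg pools (SD, n = 4 each, limma adjusted p = 0.776). Cbr1, a cytosolic carbonyl reductase, was at 0.19 (limma adjusted p = 0.564) and Hsd11b1, a reductase that also regenerates glucocorticoids, at -0.29 (limma adjusted p = 0.713). Of the 24 carbonyl and aldo-keto reductases listed besides Cbr2, 14 were tested, 8 above 0 and 6 below, with a median of 0.043, which ran from -0.067 (without Atgl KO/cTg replicate 4) to 0.098 (without Atgl KO/cTg replicate 1) when a pool was left out.

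Aox3 encodes the aldehyde oxidase that mouse liver and lung mainly use. Its probe set (17213021) read 10.39, 10.24, 10.31 and 10.50 in the Atgl KO/cTg pools, against 10.40, 10.31, 10.27 and 10.11 in the wt/cTg pools. The ranges overlapped widely, with 1 Atgl KO/cTg pool above all wt/cTg pools. Between genotypes the log2 difference was 0.089 with SE 0.082 (adjusted p = 0.833 in limma and p = 0.4 in the exact permutation test), with an interval of -0.090 to 0.27. It was 0.034 without wt/cTg replicate 4 and without Atgl KO/cTg replicate 4 it was 0.042. Within runs of mouse numbers it was -0.085, -0.00050 and 0.40, the last from the run that holds both of these pools.

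The relatives of Aox3 that need molybdenum went both ways. Aox1, its direct neighbour on chromosome 1, averaged 7.49 ± 0.14 in Atgl KO/cTg pools, against 7.24 ± 0.15 in wt/cTg pools, a difference of 0.25 (limma unadjusted p = 0.0401, adjusted p = 0.6). Xdh, xanthine dehydrogenase, which ends purine breakdown in uric acid, averaged 8.49 ± 0.08 in Atgl KO/cTg pools, against 8.78 ± 0.17 in wt/cTg pools, a difference of -0.29 with groups that did not overlap (limma p = 0.0105 before and 0.462 after adjustment, and 0.0286 in the exact permutation test, the least this design allows). Gphn, which makes the cofactor and also anchors receptors at synapses, was at 0.20 (limma adjusted p = 0.7). Of 8 genes of this list 6 were tested, 4 above 0 and 2 below.

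The remaining enzymes were read from lists of their families. Of 17 further aldehyde dehydrogenases 13 were tested, 9 above 0 and 4 below (median 0.025), with Aldh3b2 at 0.20 and Aldh5a1, succinate-semialdehyde dehydrogenase, at 0.22 (limma adjusted p = 0.669 and 0.693). Of 8 alcohol dehydrogenases, quinone reductases and monoamine oxidases 7 were tested, 2 above 0 and 5 below (median -0.20). In that list Nqo1 was the highest, and its pools did not overlap. Maob, which oxidises amines, averaged 7.62 ± 0.26 in Atgl KO/cTg pools, against 8.08 ± 0.17 in wt/cTg pools (limma adjusted p = 0.435), and Adh1, an alcohol and retinol dehydrogenase, averaged 8.81 ± 0.27 in Atgl KO/cTg pools, against 9.19 ± 0.20 in wt/cTg pools (limma adjusted p = 0.524).

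Por itself was not measured, but enzymes that take electrons from it and other electron carriers were. Of 17 listed, 16 were tested, 10 above 0 and 6 below, with a median of 0.031. Cyb5b, the cytochrome b5 of the outer mitochondrial membrane, averaged 7.48 ± 0.13 in Atgl KO/cTg pools, against 7.79 ± 0.08 in wt/cTg pools, with groups that did not overlap (difference -0.30, limma adjusted p = 0.446). Cyp2b10, a P450 of the lung and liver, was at -0.23 (limma adjusted p = 0.764).

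Over the 7 lists together 83 genes were listed, 79 measured and 61 tested. Limma called 0 of the 61, beside 0.0991% of all genes, and the smallest adjusted p was that of Dcxr. At an unadjusted p under 0.05 there were 4 higher and 4 lower, 8 of 61 where the share over all genes was 7.95%. Groups did not overlap for 3 higher (Dcxr, Akr7a5 and Nqo1) and 2 lower (Xdh and Cyb5b), where the share over all genes was 4.35%. The median difference of the 61 was 0.020.

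**Figure D5:**
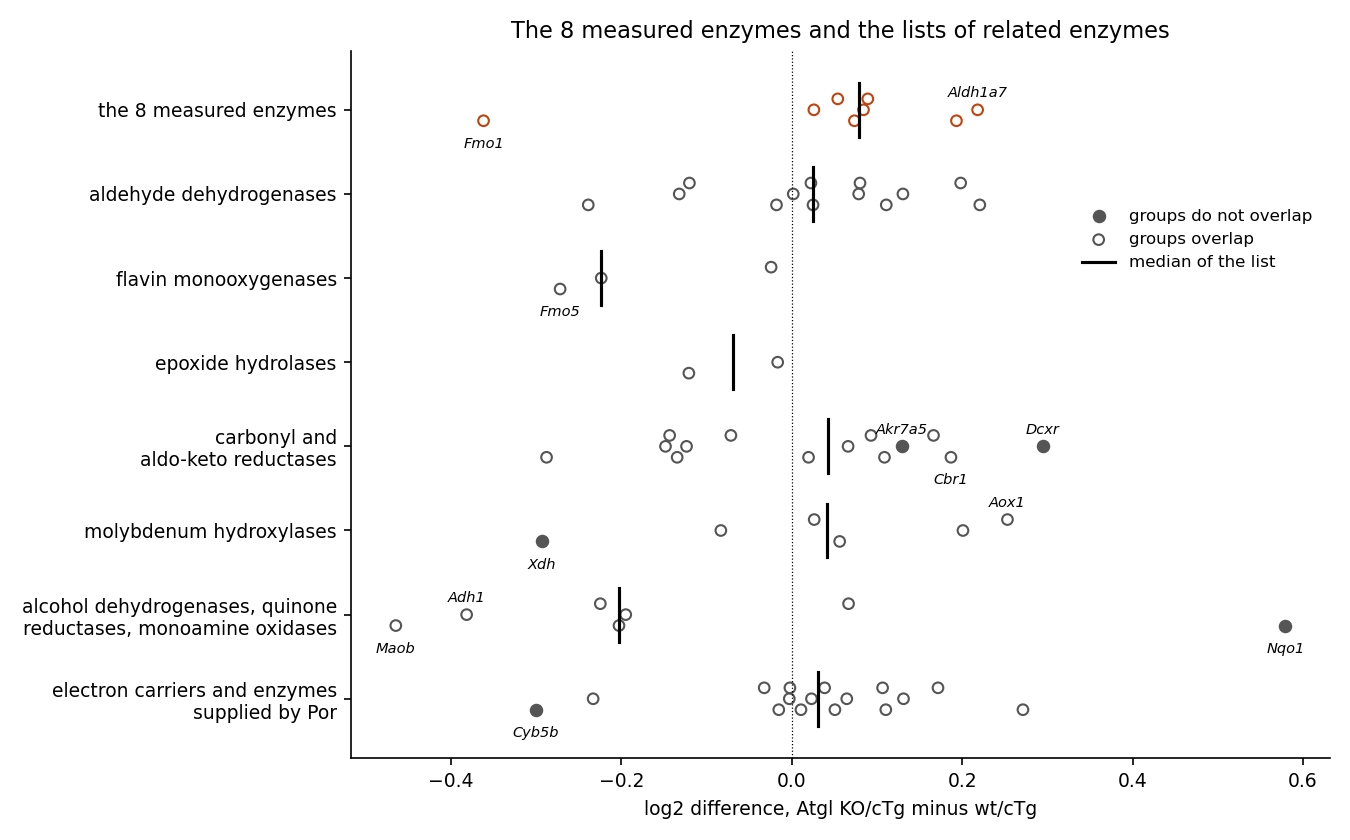
Log2 difference between Atgl KO/cTg and wt/cTg for the 8 measured enzymes (top row) and for the 61 tested genes of the 7 lists of related enzymes. Each circle is a gene, filled where the pools of the 2 genotypes did not overlap, and the vertical bars are medians, which run from -0.22 (flavin monooxygenases) to 0.079 (the 8 measured enzymes).

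Among the 8 enzymes the same pools tended to be extreme. Atgl KO/cTg replicate 4 was the highest pool of its genotype for 6 of the 8 (Aldh1a1, Aldh1a7, Fmo1, Ephx1, Cbr2 and Aox3), and Atgl KO/cTg replicate 2 the lowest for 5 (Aldh1a1, Fmo2, Ephx1, Cbr2 and Aox3). In wt/cTg, replicate 4 was the lowest for 4 (Aldh1a7, Ephx1, Cbr2 and Aox3) and the highest for Fmo1 and Fmo2. The spread within genotypes ran from a pooled SD of 0.042 for Cbr2 to 0.23 for Fmo1 and 0.23 for Aldh3a1.

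The genes most like the other enzymes by pattern over the 8 arrays differed from enzyme to enzyme, each pair being the 2 highest of 13111 genes by Pearson r. For Aldh1a1 they were Cyb5rl (0.93) and Ninl (0.92), and for Aldh1a7 Ndufaf8 and Slc4a5 (both 0.95). For Aldh3a1 they were D630039A03Rik (0.96) and Vill (0.95), and for Fmo2 A530016L24Rik and H2ab1 (both 0.93). For Ephx1 they were Ankrd17 (0.98) and Lclat1 (0.96), for Cbr2 Ttll10 and Tmem231 (both 0.93), and for Aox3 Phb2 and 2900026A02Rik (both 0.95). None of these pairs held another of the 8 enzymes.

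The promoter windows of the enzymes, from 250 bases before to 50 after each start in RefSeq, covered 6 of the 8 measured genes with 8 windows. The core of the antioxidant response element, TGACNNNGC on either strand, stood in 0 of the 8 and in 12.4% of all 32851 windows. The core of the aryl hydrocarbon receptor element, GCGTG on either strand, stood in that of Aox3 alone and in 32.4% of all windows. Aldh3a1 and Fmo1 had no window.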

How the data were processed

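The deposited values are log2 signals of 41345 probe sets on 8 arrays, used as the authors deposited them. Per the labels' protocols, RNA was amplified with the NuGEN Ovation Pico system and labelled with biotin. The sources used here do not give the background correction or normalization. That the unit is log2 follows from the range of values, and signal over background could not be tested. In the platform annotation 23521 probe sets had 1 gene symbol, 1814 several and 16010 none. The brightest probe set of each gene with 1 symbol was kept, and genes with a mean above 5.18, the median of all probe sets, were tested.

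The comparison of genotypes used limma 3.58.1 under R 4.3.3 (variance trend, two-sided, Benjamini-Hochberg over all genes tested), and single values with a two-sided exact permutation test over 70 arrangements, whose smallest possible p is 0.0286. A positive difference means a higher level in Atgl KO/cTg. The fit was tested on simulated data and repeated under 20 alternatives (level filter, variance prior, normalization, array weights, probe sets averaged, covariates, blocks and pools left out), and those of the 2 paralog differences were chosen after seeing the data. Replicate numbers follow sample order and pair nothing.

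The enzymes and gene lists were chosen with earlier results of these data known. The genes named are the enzymes, Pnpla2, listed enzymes called or with groups that did not overlap, up to 2 more per list by smallest p, the 2 most similar genes by Pearson r, and the 2 brightest and any called marker of each cell type list, of which those not touching a result are left to the closing section. In some lists remaining genes are named too. Figures were drawn with matplotlib 3.10.9.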

Additional observations from a re-analysis of the deposited data

Results flagged for a closer look

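Aldh1a1 read 12.25 in Atgl KO/cTg replicate 2 and 12.42 to 12.44 in the other 3 Atgl KO/cTg pools, a gap to its nearest neighbour of 0.894 of the group's range, above Dixon's 95% critical value for 4 samples. Of 20 such groups examined 1 was marked, and chance marks about 1 in 20. Without this pool the log2 difference of Aldh1a1 was 0.10 (limma unadjusted p = 0.0652), against 0.054 with it.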

How the results depend on the processing

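The labels give no replicate numbers shared between the genotypes, and the design text speaks of 4 sets without saying which pools form one, so no fit by set was made. The run of mouse numbers in the titles served as a block instead. Limma called 0 of the 8 enzymes and 0 of the listed other enzymes in each of the 20 alternative settings run, with adjusted p for the 8 enzymes from 0.363 to 1.00. The direction of Aldh1a1, Aldh1a7, Aldh3a1, Fmo1, Fmo2, Cbr2 and Aox3 was the same in all 20. That of Ephx1 turned after median centring (-0.0044) and in 3 of 8 settings that leave out a pool, where it ran from -0.046 to 0.11. Over all genes the count of 13 (2 higher, 11 lower) was 7 both with age in the model and when no gene was filtered by level, 1 without the variance trend, 1 after quantile normalization (0 higher, 1 lower), 23 with array weights, 3 with the run of mouse numbers as a block and 8 without both end pools of the first principal component. It ran from 1 to 25 when a pool was left out (18 without Atgl KO/cTg replicate 2, 25 without wt/cTg replicate 1, and 1 or 2 without any other pool), and median centring gave 1 higher and 18 lower. The causes were not tested.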

Other observations

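Further markers of other cell types were among the brightest of their lists and had no call. Ager and Pdpn (alveolar type 1) were at -0.53 and -0.13, Calcrl and Cdh5 (endothelium) at -0.48 and -0.40, and Sftpa1 (alveolar type 2) at -0.13. Ccdc153 and Dynlrb2 (ciliated cells) were at 0.19 and 0.037, Muc5b and Agr2 (goblet cells) at 0.70 and 0.45, Chil3 and Cd68 (macrophages) at 0.25 and 0.12, and S100a8 and Ptprc (neutrophils and leukocytes) at 0.49 and -0.11, all as log2 differences between Atgl KO/cTg and wt/cTg. Limma adjusted p of these genes ran from 0.496 to 0.98.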
